A study of Mus musculus with 16 samples.

Results

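The genes described here encode 7 subunits of the GABA-A receptor: Gabra2, Gabra3, Gabra4, Gabra5 and Gabra6 of the alpha family, Gabrb2 of the beta family and Gabrd, the delta subunit. They were taken by gene name from the deposited expression table, and all 7 were among the 37583 genes counted, 27196 of which had at least 1 count. RNA of cortex and cerebellum was sequenced for 4 wild-type animals and for 4 that carry the A391T mutant (also numbered A393T) of Slc39a8, a gene for a membrane transporter of manganese and other metals, all of strain C57BL/6J, with 1 library per region and mouse and 16 libraries in all. The cortex was frontal cortex taken by blunt dissection and the wild-type mice were male and 12 weeks old, as the study's methods describe them. The same tissue, library and counting steps were used for both genotypes, the labels do not say whether the mutants carried 1 or both mutant copies, and their age was not given in the sources used here. Libraries are named here as in the labels, by the region (CTX, cortex; CBLM, cerebellum) and the number of the mouse.

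The GABA-A receptor is a pentameric chloride channel that opens when it binds GABA, the main inhibitory transmitter of the adult brain. Most receptors combine alpha and beta subunits with a gamma or delta subunit, and the alpha subunit sets much of the response to GABA and to drugs. Many, but not all, receptors with a gamma subunit gather at synapses and give brief currents, whereas receptors with delta lie outside the synapse and carry a tonic current. In the adult brain Gabra6 is known as a gene of cerebellar granule cells, where its protein pairs with delta, and Gabra5 is known for its high level in the hippocampus and its part in tonic inhibition. Benzodiazepines bind between an alpha and the gamma subunit, and an alpha subunit with histidine at a certain position of this site binds classical benzodiazepines, whereas arginine there prevents it.

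The alpha genes of this set differ in exactly that codon. The 39 bases around it are shown from the coding transcripts of the GENCODE annotation of NCBIM37, 5′ to 3′ on the coding strand, with the codon in capitals, because the make-up of the RNA is later summed by it.
Gabra2: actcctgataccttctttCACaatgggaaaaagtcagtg
Gabra3: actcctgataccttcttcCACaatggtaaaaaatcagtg
Gabra5: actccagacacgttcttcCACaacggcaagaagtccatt
Gabra4: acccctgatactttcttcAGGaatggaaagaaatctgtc
Gabra6: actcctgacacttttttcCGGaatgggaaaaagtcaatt
Gabra2, Gabra3 and Gabra5 carry CAC for histidine, Gabra4 carries AGG and Gabra6 carries CGG, both for arginine. Over these bases Gabra2 and Gabra3 are 92.3% identical, and Gabra4 and Gabra6 are 74.4% identical, although they code for the same residue at the site.

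Libraries had from 20813432 to 30497206 counts on genes. The names of the libraries conflict between the deposited files: for 8 of the 16 columns of the expression table, those of 4 mice, the values belong to the counts filed under another mouse, and in each region 2 wild-type and 2 A391T libraries trade places. Names were taken from the count files here, so values under the names of the table are also given for the comparisons that depend on genotype. The region of every library was the same under both. The 7 markers of cerebellar granule cells summed to 28.99 to 49.1 TPM (transcript counts corrected for gene length and library total) in the cortex libraries and to 2101 to 2885 TPM in the cerebellum libraries, and the 6 markers of cortical projection neurons summed to 2315 to 2903 TPM in cortex and to 764 to 1023 TPM in cerebellum. The cerebellum sum was mostly Slc17a7, a glutamate transporter gene that granule cells use too, at 732 to 981 TPM, and Tbr1 and Fezf2 of the same list lay at or below 0.894 TPM in every cerebellum library. The A391T cerebellum library CBLM445 stood apart, with 4418 TPM of the interneuron and Purkinje cell gene Pvalb against 1545 to 1871 TPM in the other cerebellum libraries. It also had the smallest shares of entries on no gene (10.2%) and not uniquely aligned (8.41%) of all 16 libraries and the largest ambiguous share (2.75%), and the log2 fold changes in A391T mice are also given without it.

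The first question was how the subunits rank in each region, and Gabra6, Gabra3 and Gabra4 changed places most between cortex and cerebellum. In wild-type cortex the levels lay close together for all but Gabra6. Gabrd had 149 ± 9.52 TPM, Gabra3 146 ± 5.91, Gabra4 108 ± 3.12, Gabrb2 101 ± 16.4, Gabra2 92.2 ± 4.27 and Gabra5 82.1 ± 1.92 TPM (SD, n = 4 for each), while Gabra6 had 0.387 ± 0.227 TPM. The libraries of Gabrd and Gabra3 overlapped, as did those of Gabra4 and Gabrb2 and of Gabrb2 and Gabra2. With the exon lengths of the genome annotation in place of the lengths in the deposited table, Gabrd lay below Gabra3 in wild-type cortex, at 0.731 times its level against 1.02 with the table's lengths, so the order of these neighbours rests on the length used. In wild-type cerebellum no neighbours in the order overlapped: Gabra6 had 679 ± 29.5 TPM, Gabrd 434 ± 10.6, Gabrb2 134 ± 7.66, Gabra2 55.2 ± 5.30, Gabra4 26.8 ± 1.93, Gabra3 16.3 ± 1.74 and Gabra5 2.86 ± 1.67 TPM (SD, n = 4 for each). Gabra6, last in cortex, was first in cerebellum, and Gabra3, among the highest in cortex, was next to last. The summed level of the 7 genes was 678 ± 26.7 TPM in wild-type cortex and 1348 ± 39.5 TPM in wild-type cerebellum. The order in A391T cerebellum was that of wild-type cerebellum, again with no overlap between neighbours, and A391T cortex differed from wild-type cortex only in that Gabra3 stood before Gabrd, whose libraries overlapped there as well.

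**Figure D1:**
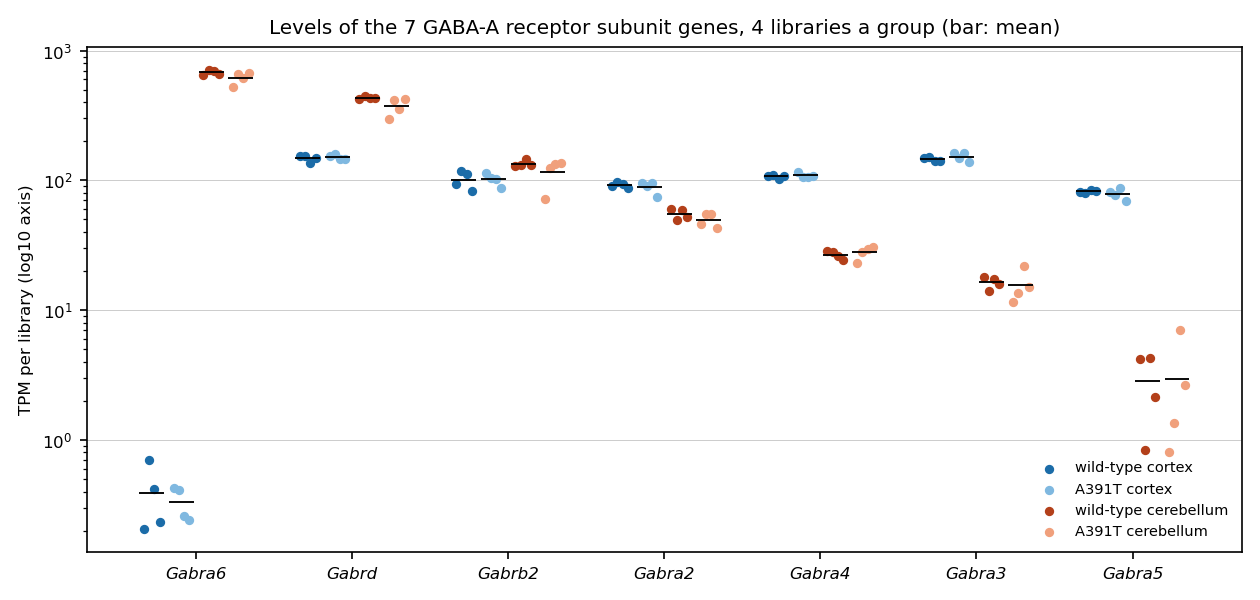
Level of each of the 7 subunit genes in TPM (vertical axis, log10 scale) in each of the 16 libraries, grouped by genotype and region; points are libraries and bars are means of 4. Gabra6 lies at or below 0.697 TPM in the 8 cortex libraries and at or above 520.5 TPM in the 8 cerebellum libraries, whereas the genotypes stand much closer within a region. Gabra5 in cerebellum spreads from 0.802 to 7.05 TPM.

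The next question was which subunit genes differ between the regions. In wild-type mice 5 of the 7 genes passed an adjusted p-value under 0.05 with at least a 2-fold difference, 2 higher and 3 lower in cerebellum, while 24.7% of the 16040 genes tested did so, 10.5% higher and 14.2% lower. By the adjusted p alone 7 of the 7 passed, against 67.8% of all genes. The median log2 fold change was -0.89 over the 7 genes and 0.02 over all genes tested. In A391T mice the same 5 genes passed in the same directions, against 24.7% of 16005 genes, 9.8% higher and 14.9% lower, and by the adjusted p alone 6 passed, against 62.8%. TPM did not overlap between the regions for 7 of the 7 genes in wild-type mice, where this held for 65.9% of all genes tested, and for 6 of the 7 in A391T mice, where it held for 61.8%. In whole tissue, fewer cells of a type and less RNA per cell cannot be told apart, and this holds for every value below.

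Gabra6 had the largest difference of the 7 genes. In wild-type cortex it had 5, 20, 9 and 5 counts in CTX447, CTX448, CTX479 and CTX480, or 0.204, 0.697, 0.415 and 0.233 TPM, and in A391T cortex from 6 to 10 counts. In the cerebellum of the same mice it had 15191, 17143, 16549 and 14875 counts, or 650.0, 709, 699 and 658 TPM, and the A391T libraries CBLM445, CBLM446, CBLM461 and CBLM462 had 520.5, 659, 617 and 676 TPM. The lowest cerebellum library lay far above the highest cortex library. Whether the few cortex counts are RNA made in cortex was not tested. In wild-type mice the log2 fold change of cerebellum over cortex was 10.55 (SE 0.18, edgeR quasi-likelihood test, Benjamini-Hochberg adjusted p = 8.3e-12). In A391T mice it was 10.74 (SE 0.14, adjusted p = 4.8e-11 by the same edgeR test). Each SE was derived from the test statistic, and for Gabra6, with few cortex counts, it is likely too small. Leaving out 1 library gave 10.33 to 11.05 in wild-type and 10.60 to 10.87 in A391T mice.

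Gabrd, whose protein joins alpha 6 in the receptors outside the synapse of granule cells, was the other gene past both criteria in the upward direction. Wild-type cortex had 155, 155, 135 and 148 TPM and wild-type cerebellum 425, 449, 430 and 431 TPM, each in the same order of mice as Gabra6. All 4 cerebellum libraries were far above all 4 cortex libraries, at 2.92 times the cortex mean, a log2 fold change of 1.39 (SE 0.07, edgeR adjusted p = 7.5e-09). The log2 fold change in A391T mice was 1.20 (SE 0.09, edgeR adjusted p = 1.2e-06). Unlike Gabra6, Gabrd was thus an abundant RNA in both regions. Within each wild-type cerebellum library the level of Gabra6 was from 1.53 to 1.62 times that of Gabrd. This ratio depends on the gene lengths, since the annotation's exon lengths gave a mean of 2.85 in place of 1.57.

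Gabra5 had the largest fall. Its 4 wild-type cortex libraries had 82.1 ± 1.92 TPM (SD, n = 4), and the wild-type cerebellum libraries had 4.17, 0.840, 4.29 and 2.15 TPM in CBLM447, CBLM448, CBLM479 and CBLM480, from 72, 15, 75 and 36 counts. The highest cerebellum library of either genotype, at 7.05 TPM, lay far below the lowest cortex library, at 68.7 TPM. The log2 fold change was -4.99 in wild-type mice (SE 0.28, edgeR adjusted p = 2.8e-08) and -4.88 in A391T mice (SE 0.46, edgeR adjusted p = 7.3e-06). Without CBLM461 the value in A391T mice was -5.75, and without CBLM479 that in wild-type mice was -5.27. In only the A391T mice whose names match between the files, which leaves CBLM445 and CBLM446, the A391T value was -6.27. The cerebellum values are few counts, and they spread more than those of any other of the 7 genes, with an SD of 58.2% of the mean in wild-type and of 95.6% in A391T cerebellum.

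Among the 8 cerebellum libraries Gabra5 was highest in CBLM461 of an A391T mouse, at 7.05 TPM, and next in CBLM479 and CBLM447 of wild-type mice. Sst, which marks an interneuron class, had 143, 106 and 34.9 TPM in these 3 libraries and from 15.6 to 26.6 TPM in the other 5. Vip, which marks another interneuron class, had 5.82 and 4.77 TPM in CBLM461 and CBLM479, at most 0.426 TPM in the others, and 0 in CBLM447 and CBLM480. The whole list of 5 interneuron genes, with Gad1, Gad2 and Pvalb, summed to 1961 to 2276 TPM in wild-type and to 2228 to 4906 TPM in A391T cerebellum, so the list as a whole did not set these libraries apart. Single genes of other marker lists were also highest in CBLM461 and CBLM479: the thalamic marker Tcf7l2 had 20.03 and 16.9 TPM there against 2.07 to 2.63 TPM in the other 6 libraries, the hippocampal marker Fibcd1 2.60 and 2.55 against 0.444 to 0.807 TPM, and the striatal marker Drd2 10.3 and 10.7 against 1.13 to 2.74 TPM. As sums, the 4 thalamic genes reached 99.8 and 103 TPM in these libraries against 70.9 to 98.4 TPM in the others. The 3 hippocampal genes reached 26.8 and 22.6 against 18.5 to 26.4 TPM, and the 7 striatal genes 518 and 548 against 527 to 641 TPM. Most of these sums came from Prkcd (thalamic), Prox1 (hippocampal), and Ppp1r1b and Penk (striatal), which were high in every cerebellum library. Their means in wild-type cerebellum were 82.8, 19.7, 256 and 300 TPM, so the sums could not show a small part of other tissue. The 6 projection neuron genes summed to 835 and 929 TPM in CBLM461 and CBLM479 against 764 to 1023 TPM in the other cerebellum libraries. Of them, Tbr1, at 0.634 and 0.690 TPM, and Fezf2, at 0 and 0.0657 TPM, did not exceed the other cerebellum libraries, and Rorb was highest in CBLM461, at 3.19 TPM against 2.36 to 2.89 TPM in the other 7. Gabrg3, the neighbour of Gabra5 on the chromosome, was highest in the same 3 libraries, at 0.809 to 1.06 TPM against 0.448 to 0.559 TPM in the other 5. Whether other tissue in these libraries had a part in the Gabra5 values was not tested.

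**Figure D2:**
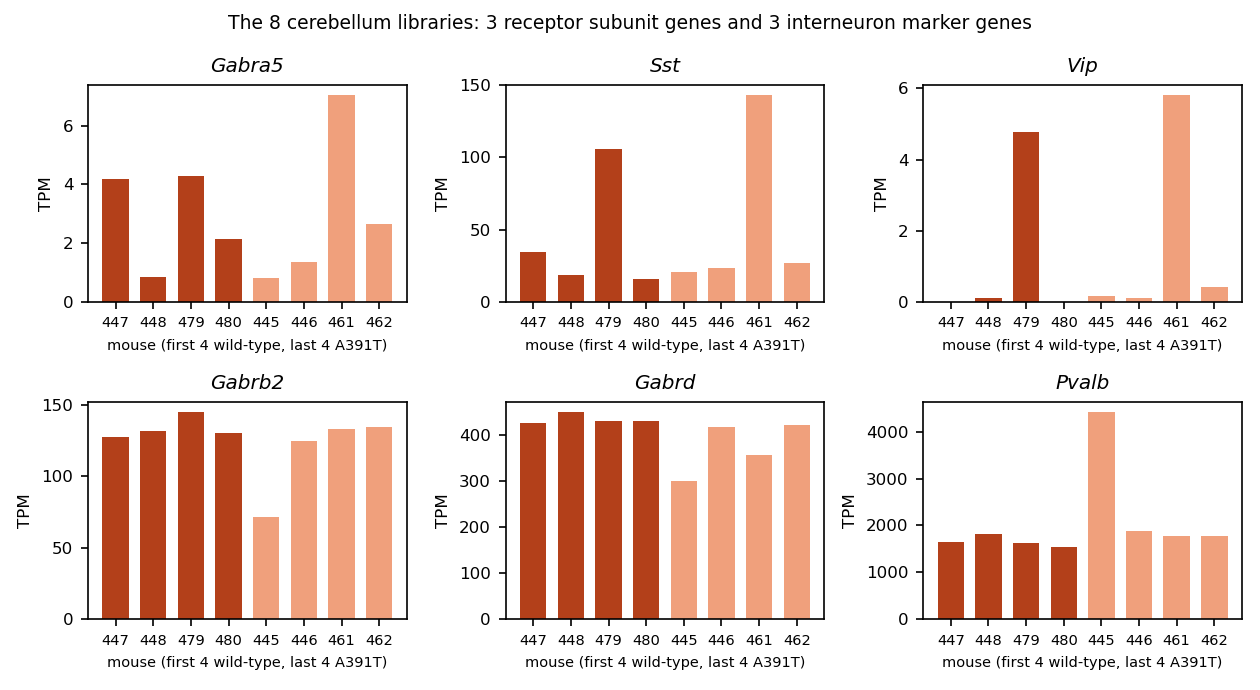
TPM (vertical axes from 0) of Gabra5, Gabrb2 and Gabrd and of the interneuron marker genes Sst, Vip and Pvalb in each of the 8 cerebellum libraries, named by mouse (dark, wild-type; light, A391T). Gabra5, Sst and Vip are highest in CBLM461, and CBLM445 has the lowest Gabrb2 and Gabrd and the highest Pvalb.

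Gabra3 and Gabra4 also fell past both criteria. Gabra3, an alpha subunit of some cortical and monoaminergic neurons, had 140.0 to 152 TPM in wild-type cortex and 17.9, 14.0, 17.4 and 16.0 TPM in wild-type cerebellum, 8.92 times lower in the mean. Its log2 fold change was -3.31 in wild-type mice (SE 0.08, edgeR adjusted p = 5.2e-11) and -3.41 in A391T mice (SE 0.16, edgeR adjusted p = 5.7e-08). Gabra4, which pairs with delta in forebrain neurons, had 103 to 111 TPM in wild-type cortex and 28.7, 27.8, 26.2 and 24.3 TPM in wild-type cerebellum. Its libraries were 4.02 times lower in the cerebellum, a log2 fold change of -2.16 (SE 0.07, edgeR adjusted p = 5.2e-10), with -2.08 in A391T mice (SE 0.08, edgeR adjusted p = 9.4e-09). Relative to delta, the levels of these alpha genes were exchanged between the regions: that of Gabra4 relative to Gabrd was 0.726 ± 0.0280 in wild-type cortex and 0.0617 ± 0.00454 in wild-type cerebellum (SD, n = 4), and that of Gabra6 relative to Gabrd was 0.00261 ± 0.00147 and 1.57 ± 0.0462.

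Gabra2 and Gabrb2 differed by less than 2-fold. Gabra2, an alpha subunit of synapses on forebrain neurons, had 87.1 to 97.0 TPM in wild-type cortex and 49.6 to 60.5 TPM in wild-type cerebellum, with no overlap, and its log2 fold change was -0.89 (SE 0.07, edgeR adjusted p = 8.1e-07). In A391T mice it was -0.95 (SE 0.11, edgeR adjusted p = 2.7e-05), and it came to -1.02, past 2-fold, without CTX462. That library had the lowest Gabra2 and Gabra5 of the 8 cortex libraries, 74.97 and 68.7 TPM, and the highest sum of the 7 striatal markers, 1357 TPM against 365 TPM in CTX461 and 921 to 1302 TPM in the other 6. CTX445 of the same group had nearly as high a striatal sum, 1302 TPM, with 96.2 TPM of Gabra2, the most of the 4 A391T cortex libraries, and the part of these markers in the Gabra2 value was not tested. Gabrb2, a beta subunit of synaptic receptors, had 93.3, 118, 112 and 82.3 TPM in wild-type cortex and 128, 132, 145 and 130 TPM in wild-type cerebellum. The regions lay side by side without overlap, and the log2 fold change was 0.25 (SE 0.10, edgeR adjusted p = 0.038). The adjusted p was at or above 0.05 in 7 of 17 alternatives, over which it ranged from 0.0018 to 0.14, among them without CTX447, CTX480, CBLM448 or CBLM479. In A391T mice Gabrb2 had a log2 fold change of 0.07 (SE 0.16, edgeR adjusted p = 0.73), and without CBLM445 it was 0.22 (SE 0.07, edgeR adjusted p = 0.015), with adjusted p from 0.015 to 0.99 over its alternatives.

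The names of the table left the calls of the 7 genes in both genotypes as they were. Under them the log2 fold changes of cerebellum over cortex in wild-type mice were 11.01 for Gabra6, 1.36 for Gabrd, -4.47 for Gabra5, -3.19 for Gabra3, -2.09 for Gabra4, -0.90 for Gabra2 and 0.35 for Gabrb2. In A391T mice they were 10.36, 1.24, -5.62, -3.53, -2.15, -0.94 and -0.03 in the same order of genes. Without CBLM445 the A391T values were 10.79 for Gabra6, 1.27 for Gabrd, -4.56 for Gabra5, -3.31 for Gabra3, -2.02 for Gabra4 and -0.94 for Gabra2.

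**Figure D3:**
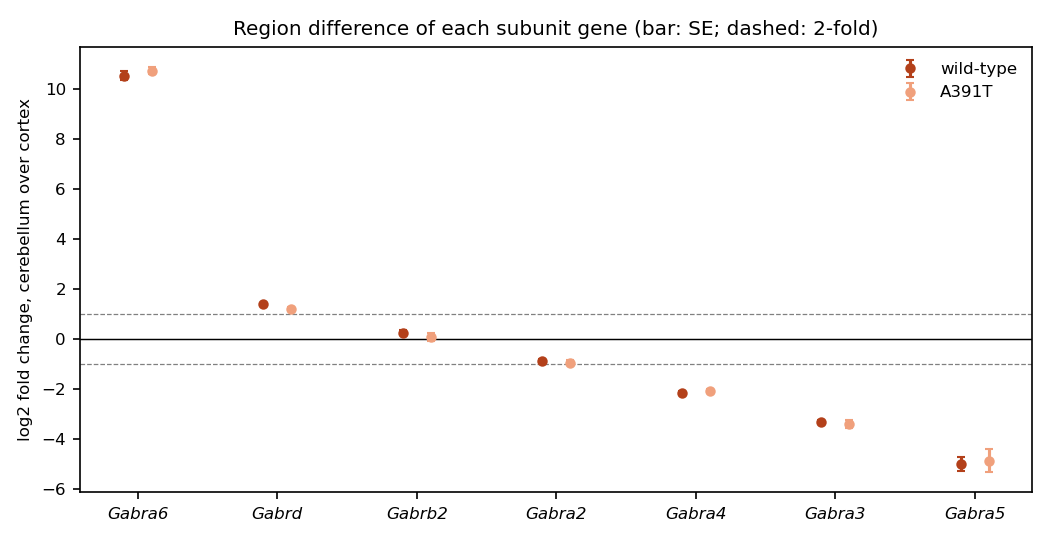
Log2 fold change of cerebellum over cortex (vertical axis) for each of the 7 genes in wild-type and A391T mice, 4 against 4 libraries. Error bars are the SE derived from the edgeR test statistic, likely too small for Gabra6, and dashed lines mark a 2-fold difference. Gabra6 stands at 10.55 and 10.74 and Gabra5 at -4.99 and -4.88, and the 7 genes stand in the same order in both genotypes.

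The share of each alpha gene shows the same values as a make-up of the RNA. Of the summed TPM of the 5 alpha genes described here, Gabra6 held 0.0899 ± 0.0508% in wild-type cortex and 87.0 ± 1.30% in wild-type cerebellum (SD, n = 4), with 0.0773 ± 0.0208% and 86.5 ± 1.57% in A391T mice. The difference had p = 0.0286 in either genotype by a two-sided exact permutation test over libraries, the smallest p that 4 against 4 allows. The test shuffled the libraries as if each came from another mouse, so it ignored the pairing of regions within a mouse. Because the shares of the regions do not overlap, this p was fixed in advance and adds nothing to the values. In wild-type cortex Gabra3 held 34.0 ± 0.703%, Gabra4 25.2 ± 0.524%, Gabra2 21.5 ± 0.723% and Gabra5 19.2 ± 0.825%, and in wild-type cerebellum these 4 genes held 2.10 ± 0.252%, 3.43 ± 0.248%, 7.08 ± 0.738% and 0.368 ± 0.212% (SD, n = 4 for each). Cortex thus had a mixture of 4 of these genes, whereas Gabra6 held most of their RNA in cerebellum. Their summed level was 428 ± 9.61 TPM in wild-type cortex and 780.2 ± 27.5 TPM in wild-type cerebellum (SD, n = 4), so the gain of Gabra6 was larger than the fall of the other 4 together.

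Summed by the codon shown above, the 2 genes with arginine, Gabra4 and Gabra6, held 25.2 ± 0.507% of the TPM of these 5 genes in wild-type cortex and 90.5 ± 1.19% in wild-type cerebellum (SD, n = 4). In A391T mice they held 25.6 ± 1.70% and 90.4 ± 1.52%. Nearly all of the arginine share was Gabra4 in cortex and Gabra6 in cerebellum. These are shares of RNA among 5 genes, not of all alpha subunits, and neither protein nor assembled receptors were measured.

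**Figure D4:**
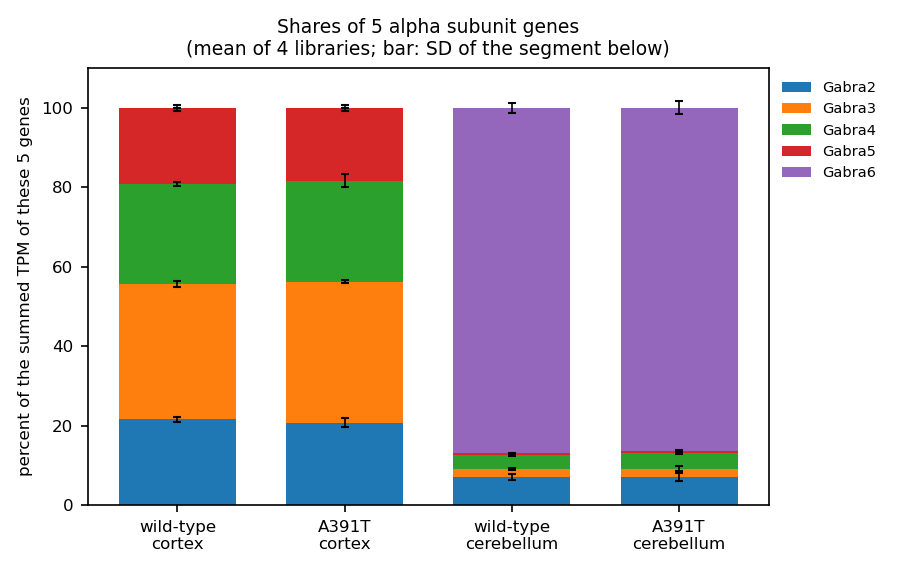
Percent of the summed TPM of the 5 alpha genes (vertical axis) held by each gene in each group; segments are means of 4 libraries and error bars the SD of the segment below them. Gabra6 fills 87.0% in wild-type cerebellum and 86.5% in A391T cerebellum, and the other 4 genes share nearly all of the cortex bars.

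Most GABA-A receptor genes lie in clusters of an alpha, beta and gamma gene, so the 7 genes were also read beside some of their neighbours. On the NCBIM37 assembly (mm9) Gabra2 lies at chr5:71352296-71487088 and Gabra4 at chr5:71960973-72049547, both on the minus strand, between Gabrg1 and Gabrb1. Gabra5 lies at chr7:64663060-64765379 on the minus strand beside Gabrg3, and 4.45% of its exon bases are shared with Gm9962 on the other strand, whose reads the unstranded counting cannot tell apart. Gabra6 at chr11:42119939-42134574 (minus strand) lies beside Gabrb2, which is at chr11:42233259-42446092 on the plus strand. Gabra3 lies at chrX:69678020-69902187 and Gabrd at chr4:154759089-154772221, both on the minus strand, and Gabrd has no subunit gene near it.

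Of the 4 genes on chromosome 5, only Gabra4 passed both criteria in wild-type mice, at -2.16, and the log2 fold changes of the other 3 were -0.71 for Gabrg1, -0.89 for Gabra2 and -0.70 for Gabrb1, less than 2-fold. On chromosome 7 Gabrg3 and Gabra5 were both called lower, with -4.06 and -4.99. On chromosome 11 Gabra6 rose by 10.55, while its neighbour Gabrb2 had 0.25, less than 2-fold. On chromosome X Gabra3 had -3.31, the next subunit gene on one side, Gabrq, had -0.20 (edgeR adjusted p = 0.69), and Gabre on the other side was too low to test. The start of Gabrb2 lies 98684 bases from Gabra6. A difference between clusters was not tested.

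**Figure D5:**
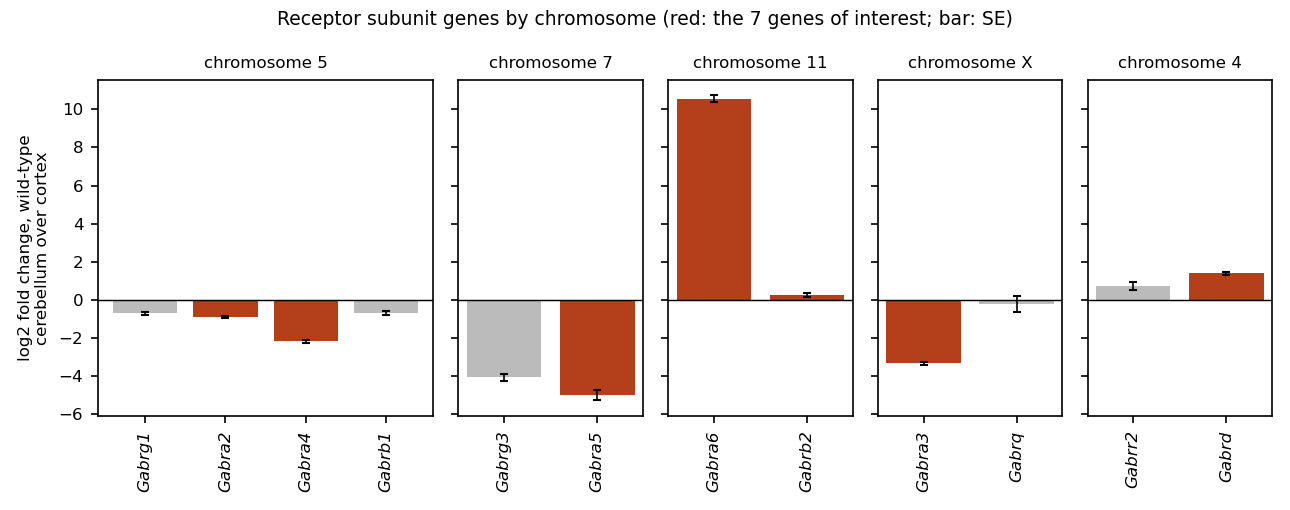
Log2 fold change of wild-type cerebellum over wild-type cortex (vertical axis, error bars SE) for subunit genes named in the text, in their order along each chromosome; red bars are members of the 7 and grey bars other subunit genes. On chromosome 11 Gabra6 stands at 10.55 beside Gabrb2 at 0.25, on chromosome X Gabra3 at -3.31 beside Gabrq at -0.20, and on chromosome 7 Gabra5 at -4.99 beside Gabrg3 at -4.06.

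Since Gabra6 was at a few counts in cortex and at 679 TPM in wild-type cerebellum, its promoter is shown. The 300 bases from 250 before to 50 after the start (RefSeq, GRCm38.p6, chr11:42321023-42321322, minus strand, 5′ to 3′) hold 1 core motif of the nuclear factor I family, written TTGGC or GCCAA on the other strand and given in capitals. Nuclear factor I proteins are known regulators of granule cell genes, Gabra6 among them.
Gabra6 promoter: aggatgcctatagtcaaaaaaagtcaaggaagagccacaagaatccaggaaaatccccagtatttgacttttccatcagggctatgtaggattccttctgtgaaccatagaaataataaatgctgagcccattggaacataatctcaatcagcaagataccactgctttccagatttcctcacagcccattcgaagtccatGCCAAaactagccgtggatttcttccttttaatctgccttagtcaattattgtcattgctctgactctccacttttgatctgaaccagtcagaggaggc
The motif begins 49 bases before the start, and 46.7% of 32851 promoters of this length hold at least 1 on either strand. It is not particular to Gabra6: the Gabra4 promoter holds 2, that of Gabra2 holds 1, 1 of the 3 Gabrb2 promoters holds 1, and those of Gabra3 and Gabra5 hold 0. The window has 2 CG pairs against a median of 7 over all promoters. RefSeq promoters were matched for 6 of the 7 genes. The Gabra2 promoter has 25 CG pairs, that of Gabra5 has 13, that of Gabra4 has 12, those of Gabrb2 have from 9 to 11 and those of Gabra3 have 0. Among the 3 genes called lower in cerebellum, the promoters thus ran from 0 to 13 CG pairs.

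The other genes of GABA signalling were read from lists, beside the 24.7% of all genes tested that passed in wild-type mice. Of 9 other receptor subunits 5 had enough counts to be tested in wild-type mice, and 1, Gabrg3, passed both criteria, lower in cerebellum. Gabrr2 had a log2 fold change of 0.73, with an edgeR adjusted p under 0.05, and Gabrq of -0.20 (edgeR adjusted p = 0.69). Gabre, Gabrp, Gabrr1 and Gabrr3 had at most 20 counts in any library. Of 14 genes of receptor assembly, trafficking and anchoring, 3 passed, all lower in cerebellum: Shisa7, an auxiliary protein of the receptor, at -3.05, Slitrk3, an adhesion protein of inhibitory synapses, at -1.67, and Gabarapl1, of the GABARAP family, at -1.02. Of 9 genes of GABA synthesis, packaging, uptake and breakdown 1 passed, Slc6a12, a transporter of betaine and GABA, higher in cerebellum at 2.55, and of 4 chloride transporters and GABA-B receptor genes none passed, while 3 had an edgeR adjusted p under 0.05. The median log2 fold changes of the 4 lists were -0.70, -0.20, 0.59 and -0.18, beside 0.02 over all genes tested. Differences between the lists and all genes were not tested.

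Over the 16 libraries, the genes most like each of the 7 were found by Pearson correlation of log2 CPM among 16589 genes. CPM are counts scaled to the library total, and here the totals were TMM-corrected. The 16 libraries are 8 of each region, so any gene with a large region difference correlates with any other, and the values describe only this pattern. Gabra6 was closest to Cbln3 (r = 0.999), a granule cell gene, and Hes3, and Gabrd to AI118078 (r = 0.995) and Gria4, a glutamate receptor gene. Gabra5 was closest to Lrfn2 (r = 0.997) and Meis2, Gabra3 to Stx1a (r = 0.999) and Mpped1, Gabra4 to Arpp19 (r = 0.998) and Tmeff1, and Gabra2 to March10 (r = 0.986) and Bmp2. Gabrb2 was closest to Epb4.1l3 (r = 0.957) and Mll5, and 59 genes had r above 0.9 with it, against 2497 to 3078 genes for each of the other 6.

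The last question was whether the A391T mutant differs from wild type in these genes. In cortex 0 of the 6 genes tested passed, Gabra6 being too low to test, against 0.00632% of 15815 genes (1 gene), and 0 of the 6 had an unadjusted p under 0.05 by edgeR or DESeq2. Their log2 fold changes of A391T over wild type ran from -0.08 for Gabra5 (SE 0.07) to 0.05 for Gabra3 (SE 0.06). TPM of the genotypes overlapped in cortex for all 7 genes, and 3.24% of all genes did not overlap. In cerebellum 0 of the 7 genes passed, against 0% of 15668 genes by edgeR (1340 had an unadjusted p under 0.05) and 9 genes by DESeq2, and again 0 of the 7 had an unadjusted p under 0.05 by either tool. Under the names of the table, too, 0 of the 7 passed in either region.

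In cerebellum Gabrd was the nearest to a difference among the 7. The A391T libraries had 299, 416, 357 and 422 TPM in CBLM445, CBLM446, CBLM461 and CBLM462 and the wild-type libraries 425 to 449 TPM, so all 4 A391T libraries lay below all 4 wild-type libraries, as 7.83% of all genes did in one direction or the other. The margin was thin: in CPM the genotypes overlapped, at 197 to 257 in A391T and 254 to 277 in wild-type libraries, and under the names of the table they overlapped in TPM, at 299 to 449 and 357 to 431. The log2 fold change was -0.17 (SE 0.09, adjusted p = 0.53 by the edgeR quasi-likelihood test, Benjamini-Hochberg adjusted). Without CBLM445 it was -0.11 (SE 0.06), and it was 0.01 (SE 0.10) under the names of the table. Gabra6 had a log2 fold change of -0.09 (SE 0.07) and Gabrb2 of -0.16 (SE 0.15), without CBLM445 these were -0.05 and -0.02, and under the names of the table -0.0028 and -0.20. That library had the lowest level of 6 of the 7 genes among the 8 cerebellum libraries, all but Gabra2: 520.5 TPM for Gabra6 (next lowest 617), 299 for Gabrd (357), 71.3 for Gabrb2 (125), 11.5 for Gabra3 (13.5), 22.9 for Gabra4 (24.3) and 0.802 for Gabra5 (0.840). It also had the lowest sum of the 7 granule cell markers, 2101 TPM against 2441 to 2885 TPM. Its interneuron list summed to 4906 TPM against 1961 to 2333 TPM, almost wholly through Pvalb, and the part of this in the subunit values was not tested.

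Gabra5 had no measurable difference between the genotypes in cerebellum and a wide error. Its log2 fold change was 0.07 (SE 0.65), it was -1.14 (SE 0.54, edgeR adjusted p = 0.55) under the names of the table, it was -0.82 without CBLM461, and it was 0.38 without CBLM445. Its adjusted p ranged from 0.47 to 0.99 over the alternatives. The interaction of region and genotype was likewise past the threshold for 0 of the 7 genes and for 0% of 16589 genes by edgeR (805 genes had an unadjusted p under 0.05) and for 0 genes by DESeq2. The interaction values ran from -0.18 for Gabrd (SE 0.11) to 0.20 for Gabra6 (SE 0.34), with edgeR adjusted p from 0.77 to 0.96. The values of Gabrd, Gabrb2 and Gabra6 were -0.11, -0.02 and 0.25 without CBLM445 and -0.10, -0.37 and -0.64 under the names of the table. Of the 5 other subunit genes tested here, Gabrr2, a rho subunit, had the largest log2 fold change in size between genotypes in cerebellum, with 28 to 41 counts in wild-type and 14 to 20 counts in A391T libraries. Its log2 fold change was -1.05 (SE 0.20, edgeR adjusted p = 0.53), and it was 0.03 under the names of the table. It was -1.10 (SE 0.33) in only the mice whose names match, and from -1.18 to -0.97 on leaving out 1 library.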

How the data were processed

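RNA of cortex and cerebellum was measured in 16 libraries, and the authors made polyA-selected directional libraries, aligned 50-base reads to mm9 with STAR and used HTSeq for unstranded counting on Ensembl genes. The deposited values are raw whole-number counts, 1 file per library. The authors also deposited an RPKM table with a gene length per gene. Entries on no gene (10.2% to 13.2% of a count file), ambiguous entries (2.20% to 2.75%) and not uniquely aligned entries (8.41% to 12.1%) stayed out of totals and tests.

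The quasi-likelihood test of edgeR 4.0.16 (R 4.3.3, limma 3.58.1) was run on these counts, filtered by filterByExpr and TMM-normalized, without covariates, and p-values were adjusted by Benjamini-Hochberg over every gene tested. Genes passed when the change was 2-fold or more with an adjusted p-value under 0.05. The SE given with edgeR values is the size of the log2 fold change divided by the square root of F, the test statistic. TPM was computed from the counts and the gene lengths of the RPKM table with Python 3.11.15, pandas 2.3.3, numpy 2.4.6 and scipy 1.17.1. The test was checked on simulated counts. Alternatives were DESeq2 1.42.0, RLE size factors, library totals, no filter, all 16 libraries in one model, the library names of the RPKM table, only mice whose names match, a replicate block for mouse, and leaving out each library. Exon lengths of the annotation, and shares over the 5 alpha genes described in place of all alpha subunits, were added after the data were seen.

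Regions of a mouse came from the same animal by the study's methods, so the mouse numbers pair them. Deviations from the group means correlated from -0.10 to 0.12 within a mouse (median -0.05) and from -0.17 to 0.15 between mice (median 0.01). Under the names of the table they correlated from -0.11 to 0.19 within a mouse (median 0.04) and from -0.22 to 0.18 between mice (median -0.03). The 7 genes and all lists were chosen with earlier results of these data known. Some listed subunit and marker genes are not reported here. The text names the 7 genes, 9 other subunit genes, up to 4 genes of each pathway list past both criteria in wild-type mice, the 2 genes most correlated with each of the 7, and marker genes beside a result. Sst, Vip, Pvalb, Tcf7l2, Fibcd1, Drd2 and the order of the chromosomal neighbours were singled out after their values were seen.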

Additional observations from a re-analysis of the deposited data

Results flagged for a closer look

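In groups of 4 libraries, 40 sets of values (the 7 levels, the shares of Gabra6 and of Gabra4 with Gabra6 among the 5 alpha genes, and the ratio of Gabra6 to Gabrd, in each group) were tested for a library far from the others, and 1 was flagged, where chance flags about 1 in 20. This was Gabrb2 in the A391T cerebellum library CBLM445. Its level was 71.3 TPM against 125 to 135 TPM in the other 3 A391T cerebellum libraries, a gap of 0.847 of the group's range. Without this library Gabrb2 had 131 ± 5.15 TPM in A391T cerebellum (SD, n = 3) and 116 ± 30.1 TPM with it (SD, n = 4).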

How the results depend on the processing

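Of 238 region values of the 7 genes under alternatives, 234 kept their direction and their side of the threshold. The 5 genes past the threshold in each genotype stayed at 5 in every alternative that kept the criteria except without A391T cortex library CTX462, which gave 6, and with mouse as a replicate block they were again 5 in each genotype. The block changed no call of the 7 genes. The adjusted p alone gave 7 and 6 of the 7, and 10875 and 10056 of all genes. Library totals moved the median log2 fold change of all genes from 0.02 to 0.14 in wild-type mice and the share of calls that were higher from 42.6% to 49.6%.

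For Gabrb2 in A391T mice the region value turned to -0.029 under the names of the RPKM table, -0.24 in only the mice whose names match and -0.053 with the block and those names. In cortex, all genes past the threshold between genotypes were 0 with RLE, library totals, table names or one model and 2 with no filter, DESeq2 or the adjusted p alone, and in cerebellum 1 with no filter, 9 with DESeq2 and 2 with one model. Leaving out a library gave 0 to 2 genes in cortex and 0 to 1 in cerebellum. None of the 7 was among them. In the pathway lists, the 1 other subunit past the threshold became 2 with no filter in wild-type mice and 2 with matching mice or without CBLM461 or CBLM462 in A391T mice, the 3 assembly genes in A391T mice were 6 with matching mice and 5 with the block and table names, 1 GABA metabolism gene in A391T mice became 2 with library totals, table names or matching mice or without CBLM461, the 1 in wild-type mice became 2 without CBLM479, and 0 chloride and GABA-B genes became 1 with library totals in both genotypes, without CTX448 or CBLM479 in wild-type mice and with table names or matching mice in A391T mice. By the adjusted p alone the 4 lists had 4, 10, 7 and 3 genes in wild-type and 3, 11, 7 and 3 in A391T mice.

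Genotype values near 0 turned sign. Under the table names they were 0.083 for Gabra2, 0.16 for Gabrb2 and 0.10 for Gabrd in cortex, and 0.074 for Gabra2, -1.14 for Gabra5 and 0.012 for Gabrd in cerebellum. With only matching mice they were 0.018, 0.15 and 0.11 for Gabra2, Gabrb2 and Gabrd in cortex and -1.48 for Gabra5 in cerebellum. Cortex Gabra4 was -1.6e-05 with RLE and -0.00012 with DESeq2, cortex Gabrb2 and Gabrd were 0.0017 and 0.0028 with library totals, and Gabrd was 0.0043 in one model. Interaction values with the table names, matching mice, and the block with table names were -1.14, -1.40 and -1.15 for Gabra5 and -0.64, -0.44 and -0.63 for Gabra6, and those of Gabra4 were -0.041 with the names and -0.036 with the block. Leaving out 1 library gave, in cortex, -0.11 to 0.0098 for Gabra2, -0.031 to 0.020 for Gabra4, -0.080 to 0.066 for Gabrb2 and -0.055 to 0.028 for Gabrd, in cerebellum -0.24 to 0.057 for Gabra3 and -0.82 to 0.38 for Gabra5, and for the interaction -0.11 to 0.033 for Gabra2, -0.28 to 0.0066 for Gabra3, -0.75 to 0.45 for Gabra5 and -0.30 to 0.42 for Gabra6. None of these passed the threshold.

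The ratio of Gabra6 to Gabrd in cerebellum was 2.47 (wild-type) and 2.62 (A391T) without gene length, 2.85 and 3.03 with the annotation's exon lengths, and 1.62 in wild-type by the deposited RPKM. The ratio of Gabrd to Gabra3 in wild-type cortex was 0.536 without length and 0.731 with annotation lengths. Among the 5 alpha genes, the Gabra6 share was 88.4% in wild-type cerebellum without length, and 90.5% and 90.1% in wild-type and A391T cerebellum with annotation lengths. The share of Gabra4 and Gabra6 without length and with annotation lengths was 29.4% and 24.4% in wild-type cortex and 92.4% and 93.0% in wild-type cerebellum. The cause of these moves is the length used, except for the RPKM value, where it is the table's names. Counts of 5 to 20 for Gabra6 in cortex and 15 to 118 for Gabra5 in cerebellum limit the precision of both.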
